A study of Mus musculus with 2 samples.

Results

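The SOCS family genes are the 8 mouse genes Socs1 to Socs7 and Cish, which encode feedback inhibitors of cytokine receptors. They were chosen by name from RefSeq GRCm38, where all 8 were found among 21887 protein-coding genes. Every peak with its summit within 50 kb of either end of one of these genes was taken, which gave 120 of 240661 peaks from the IL-4 library and 50 of 149349 peaks from the untreated library. No peak counted for more than 1 member. The libraries came from CUT&Tag with an antibody to PHLPP1, a protein phosphatase that acts on AKT, in wild-type bone marrow-derived macrophages grown with 20 ng/ml M-CSF. The first library was from cells given IL-4 at 20 ng/ml for 4 h and the second from untreated cells. Each group had 1 library, so no difference between them has a replicate check, and the intervals given with the values cover counting error only. The labels do not say how many mice gave the cells, and PHLPP1-deficient cells, a control antibody and input DNA were not analysed here.

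Proteins of this family carry an SH2 domain, which binds phosphorylated tyrosines of receptors and kinases, and a SOCS box, which recruits elongins and a cullin ubiquitin ligase. Socs1 and Socs3 also hold a short inhibitory region that blocks JAK kinases directly. Cytokines that signal through STAT factors induce Cish, Socs1, Socs2 and Socs3, whose products then damp the same receptors. In macrophages IL-4 signals mainly through STAT6, and Socs1 is one of its known targets. Socs4 to Socs7 are longer proteins that are better known as regulators of growth factor and insulin receptors. None of these roles was measured here: a peak in these lists is an interval in which fragments exceeded the authors' local background, and it says nothing of RNA.

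The libraries differed in their background, which bears on every count below. Fragment numbers at summits were worked out from each peak's fold and −log10 p as deposited. Local background went no lower than 0.643 fragments with IL-4 and 0.936 in untreated cells. Listed peaks therefore began at 3 fragments with IL-4 and at 4 without, and the IL-4 list was 1.61 times as long. Peaks of at least 4 fragments numbered 162994 with IL-4 and 149349 without, or 1.09 times as many. The total reads behind each list are unknown here.

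RefSeq GRCm38.p6 promoter sequences, from 250 bases before to 50 after an annotated gene start, were found for 4 members and are shown because the libraries differ there in which windows a peak covered. Capitals mark matches to TTC and GAA with 3 bases between them, the letters that STAT factors are known to bind. These letters read the same on both strands, and no window held TTC and GAA with 4 bases between them, the spacing that STAT6 prefers. The Socs1 window is chr16:10785487-10785786 on the minus strand, and an IL-4 peak covered all 300 of its bases. That of Socs4 is chr14:47276670-47276969 on the plus strand, of which an IL-4 peak covered 208 bases. The windows of Socs3, chr11:117969317-117969616 on the minus strand, and of Cish, chr9:107296409-107296708 on the plus strand, were free of peaks in both lists. No untreated peak reached into any of the 4 windows. The share of all promoter windows that a peak of each list reaches is not given here. Over all protein-coding genes, listed peaks within 1 kb of a gene end were also fewer without IL-4, at 22.7% of genes beside 49.3%.
Socs1: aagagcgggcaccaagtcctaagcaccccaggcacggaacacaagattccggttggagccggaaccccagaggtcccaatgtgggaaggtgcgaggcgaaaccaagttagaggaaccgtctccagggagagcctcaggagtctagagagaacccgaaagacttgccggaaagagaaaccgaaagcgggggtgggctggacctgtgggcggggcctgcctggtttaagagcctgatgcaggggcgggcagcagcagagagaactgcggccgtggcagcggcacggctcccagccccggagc
Socs4: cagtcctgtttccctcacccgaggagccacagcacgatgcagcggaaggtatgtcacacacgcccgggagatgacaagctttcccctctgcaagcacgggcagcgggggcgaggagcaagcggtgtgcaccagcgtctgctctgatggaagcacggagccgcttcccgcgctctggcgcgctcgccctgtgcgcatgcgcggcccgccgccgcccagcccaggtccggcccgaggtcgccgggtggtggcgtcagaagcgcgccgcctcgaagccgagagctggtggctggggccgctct
Socs3: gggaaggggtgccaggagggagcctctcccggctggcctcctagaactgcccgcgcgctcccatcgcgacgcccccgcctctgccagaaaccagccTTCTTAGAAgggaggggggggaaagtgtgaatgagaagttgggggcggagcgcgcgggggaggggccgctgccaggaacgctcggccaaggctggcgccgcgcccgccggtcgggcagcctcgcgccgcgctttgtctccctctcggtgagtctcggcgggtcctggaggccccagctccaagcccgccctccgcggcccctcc
Cish: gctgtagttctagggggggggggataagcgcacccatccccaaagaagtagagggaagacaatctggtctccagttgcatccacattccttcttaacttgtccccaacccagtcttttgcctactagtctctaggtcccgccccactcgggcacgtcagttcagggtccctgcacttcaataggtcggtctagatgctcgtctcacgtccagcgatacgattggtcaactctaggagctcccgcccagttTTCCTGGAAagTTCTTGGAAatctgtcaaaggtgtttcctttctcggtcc
The Socs3 window held 1 match, TTCTTAGAA, with its first base at position −154 from the start. The Cish window held 2, TTCCTGGAA beginning at the start itself and TTCTTGGAA beginning 11 bases after it. The windows of Socs1 and Socs4 held none. Over all 32851 promoter windows of this length, 8.30% held a match with 3 bases between TTC and GAA and 6.95% one with 4. The windows of Socs4 and Socs3 were rich in CpG, with 34 and 31, that of Socs1 had 18 and that of Cish 11, beside a median of 13 over the windows of protein-coding genes. A match describes the letters only, and it is not a binding site.

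Most SOCS family genes had a peak within 1 kb of a gene end in the IL-4 list, and fewer had one in the untreated list. With IL-4 these were 7 of 8 members, all but Socs3 (87.5%, exact binomial 95% interval 47.3 to 99.7), where 49.3% of all protein-coding genes had such a peak. Without IL-4 they were Socs1, Socs2 and Socs4, 3 of 8 members (37.5%, 8.52 to 75.5), beside 22.7% of all genes. Both shares were thus above those of all genes in value, with intervals as wide as 8 genes allow. These intervals treat the 8 genes as independent draws, though they are a whole named family, and they do not cover the uncertainty of each peak call. By class, Socs5, Socs6, Socs7 and Cish had one with IL-4 alone (4 of 8, against 35.5% of all genes), Socs1, Socs2 and Socs4 in both lists (3 of 8, against 13.8%), none in the untreated list only (0 of 8, against 8.93%) and Socs3 in neither (1 of 8, against 41.8%). With only peaks of at least 4 fragments counted, 6 of 8 members had an IL-4 end peak and 3 of 8 an untreated one, and lists of equal length gave the same numbers. The shares of all genes under these rules are not given here. The comparison of the classes is of listed peaks, and no difference between the groups was tested.

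**Figure D1:**
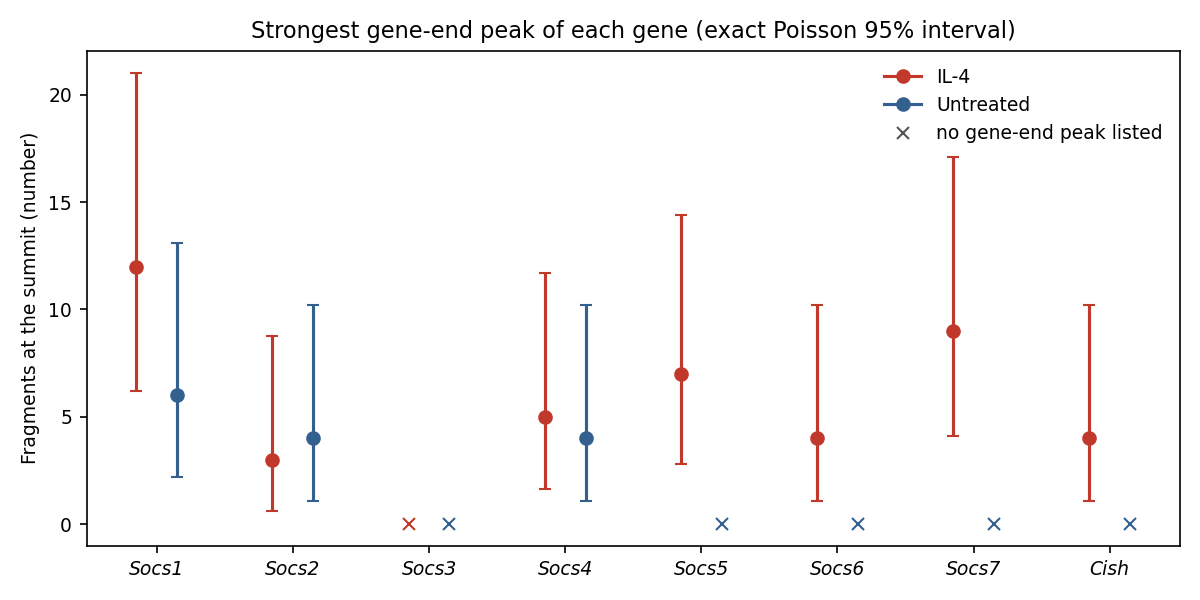
Fragments at the summit (vertical axis, number) of the strongest gene-end peak of each SOCS family gene, for the IL-4 library (red, left) and the untreated library (blue, right), with exact Poisson 95% intervals; a cross marks a gene with no listed gene-end peak and is not a measured 0. Socs1, Socs7 and Socs5 stand highest with 12, 9 and 7 fragments in the IL-4 library, and the untreated library lists end peaks of 6, 4 and 4 fragments at Socs1, Socs2 and Socs4.

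Socs1, the inhibitor of JAK kinases that IL-4 and interferons induce, had the most fragments of any member. Its gene spans 1729 bp on chromosome 16 from 10783808 to 10785536 on the minus strand. The main IL-4 peak lay across the start of the gene, from 10785285 to 10786299, with 12 fragments at the summit (exact Poisson 95% interval 6.20 to 21.0), −log10 q 3.03. It was 1015 bp wide, and only 0.0424% of the peaks in the IL-4 list were as wide or wider. The authors' list gives it 3 summits, of 7 fragments at 135 bp inside the gene, of 12 at 153 bp upstream of the start and of 12 at 580 bp upstream. A further IL-4 peak, from 10784893 to 10785042, had 9 fragments (4.12 to 17.1) inside the gene at 566 bp from the start. The untreated peak, from 10786255 to 10786597, had 6 fragments (2.2 to 13.1; −log10 q 1.11), with its summit 787 bp upstream.

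Both libraries thus had signal upstream of Socs1, and the IL-4 peak reached over the start into the gene, where the untreated list had none. The intervals of the fragment numbers overlap. The 2 peaks shared 45 bp, and their strongest summits were 634 bp apart. The local background at the IL-4 summit was 1.91 fragments, against 0.940 at the untreated one, so that the deposited folds were 4.47 and 3.61. Of all protein-coding genes, 6.03% had an end peak of at least this −log10 q with IL-4, and 9.01% did without for the untreated value.

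Socs7, whose product binds insulin receptor substrates, had the best-supported peak of the family. The gene lies on chromosome 11 from 97362292 to 97398542. Its IL-4 end peak, from 97362157 to 97362544, had 9 fragments (4.12 to 17.1), a fold of 6.02 over a background of 0.660 and a −log10 q of 4.32. The summit was 20 bp outside the lower-coordinate end of the gene. Of the peaks in the IL-4 list, 0.534% had a −log10 q as high, and 3.59% of all genes had an end peak as strong. The nearest untreated summit was 21845 bp away, inside the gene, with 4 fragments.

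Socs5, reported in T cells to bind the IL-4 receptor, had an IL-4 end peak and a second IL-4 peak nearby. It lies on chromosome 17 from 87107278 to 87137647. The end peak, from 87107082 to 87107430, had 7 fragments (2.81 to 14.4; −log10 q 2.58), with its summit 102 bp outside the lower-coordinate end. It is shared with the long non-coding RNA gene Gm30510, which overlaps that end of Socs5. The second peak, inside Gm30510 and 5416 bp outside the end of Socs5, had 8 fragments (3.45 to 15.8; −log10 q 3.40). The nearest untreated summit to both was the same one, of 4 fragments, 10343 bp from the first and 5029 bp from the second.

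Socs4, an inhibitor of EGF receptor signalling, had an end peak at the same place in both libraries. The gene lies on chromosome 14 from 47276920 to 47296102 and begins beside an end of Wdhd1, a DNA replication gene, so the peak counts for both. The IL-4 peak, from 47276762 to 47277137, had 5 fragments (1.62 to 11.7; −log10 q 1.26), and the untreated peak, from 47277007 to 47277179, had 4 (1.09 to 10.2; −log10 q 0.408). The summits were 88 and 144 bp inside the gene from its start, 56 bp apart. The counting intervals at this site overlap, and no difference was tested.

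The other end peaks of the family rested on 3 or 4 fragments, at or near the fewest a listed peak had. Socs2, which limits growth hormone signalling, had 2 IL-4 peaks of 3 fragments each at its upper-coordinate end (chromosome 10, gene from 95383903 to 95417321), at 497 and 928 bp, an end that lies close to the long non-coding RNA gene 5730420D15Rik. Its untreated peak of 4 fragments lay at the opposite end of the gene, 872 bp inside, so the libraries do not share a Socs2 site there. Socs6, a regulator of receptor tyrosine kinases on chromosome 18 from 88865169 to 88894364, had 1 IL-4 peak of 4 fragments (1.09 to 10.2), 235 bp inside its upper-coordinate end. The nearest untreated summit was 6477 bp away. Such peaks are common: 40.6% of all genes had an IL-4 end peak at least as strong as that of Socs6, and 49.3% one at least as strong as that of Socs2.

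Cish, the STAT5-induced inhibitor that acts on IL-2 and growth factor receptors, had several weak IL-4 peaks around its start and no nearby untreated peak. The gene lies on chromosome 9 from 107296659 to 107302784 on the plus strand. IL-4 summits stood 2726, 2120, 1120 and 848 bp upstream of the start, with 4, 5, 5 and 3 fragments. Inside the gene, a peak with 4 fragments lay 467 bp from the 3′ end and a peak with 3 lay 1767 bp from it. The nearest untreated summit to the gene was 9606 bp beyond its 3′ end. Within 10 kb of the gene ends Cish had 9 IL-4 peaks and 1 untreated peak, and none of the 9 had a q of at most 0.05, the highest −log10 q being 1.23. The share of all genes with such counts within 10 kb is not given here. The most upstream of the 4 summits also lies at an end of the pseudogene Gm17040.

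Socs3, the main brake on receptors that use gp130, was the member without an end peak, and this depends on which start is used. The gene lies on chromosome 11 from 117966079 to 117970336 on the minus strand. Its 1 IL-4 peak inside the gene, from 117968417 to 117968680, had 5 fragments (1.62 to 11.7; −log10 q 0.897), with its summit 1880 bp from the outermost annotated end. From the start that the promoter table gives, at 117969366, the summit was 910 bp into the gene. With that start counted as a further end, 8 of 8 members had an IL-4 end peak, where 52.3% of all genes did, and 3 of 8 had an untreated one, where 24.4% did. No untreated summit lay within 28675 bp of Socs3. The share of all genes with so wide a gap is not given here, but 37.4% of them had at most the 5 untreated peaks that Socs3 had within 50 kb.

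At q of at most 0.05, end peaks remained at Socs1, Socs5 and Socs7 in the IL-4 list (3 of 8 members, beside 18.3% of all genes) and at no member in the untreated list (0 of 8, beside 4.02%). No peak near any member reached a −log10 q of 5 in either list. End peaks that strong were rare: of 21887 protein-coding genes, 575 had one with IL-4 and 12 without. The highest values near members were 4.32 with IL-4, at Socs7, and 3.41 without. The latter was an untreated peak of 10 fragments (4.80 to 18.4) on chromosome 16 from 10762836 to 10763069. This untreated peak lay 20856 bp from the 3′ end of Socs1 and outside any gene, and the nearest IL-4 summit, of 3 fragments, was 3965 bp away.

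Around the genes, the IL-4 list had more peaks than the untreated list at 7 of 8 members, all but Socs5, which is close to the 85.1% of all genes where it did. Cish had 21 peaks within 50 kb in the IL-4 list (exact Poisson 95% interval 13.0 to 32.1) and 5 in the untreated list (1.62 to 11.7). Socs3 and Socs4 each had 20 (12.2 to 30.9) and 5 (1.62 to 11.7). At these 3 of 8 genes the counting intervals did not overlap, as at 5.79% of all genes, but they did overlap once peaks of 3 fragments were left out. Socs1 and Socs2 each had 15 peaks (8.40 to 24.7) with IL-4 and 9 (4.12 to 17.1) without, Socs6 had 12 (6.20 to 21.0) and 5 (1.62 to 11.7), and Socs7 had 11 (5.49 to 19.7) and 3 (0.619 to 8.77). Socs5 had 6 (2.2 to 13.1) and 9 (4.12 to 17.1). At these 5 genes the intervals overlapped.

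**Figure D2:**
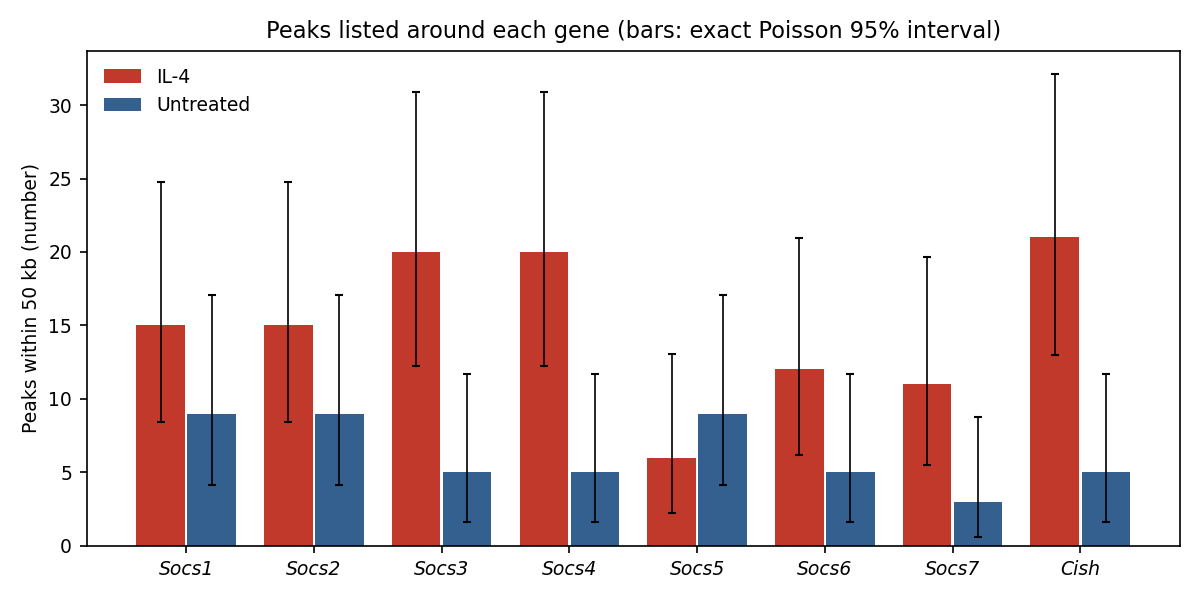
Number of peaks with a summit within 50 kb of either end of each SOCS family gene (vertical axis) in the IL-4 library (red, left) and the untreated library (blue, right), with exact Poisson 95% intervals of each count. Cish, Socs3 and Socs4 have 21, 20 and 20 IL-4 peaks against 5 untreated peaks each, while Socs5 has 6 against 9.

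The family sums were 120 IL-4 peaks (99.5 to 143) and 50 untreated peaks (37.1 to 65.9), a ratio of 2.40 where the whole lists had 1.61. The whole lists also hold peaks far from any gene, so the comparison with them is not a like one. On the scale of log2((IL-4 peaks + 1)/(untreated peaks + 1)), the sums gave 1.25. The median over members was 1.35, and that over all genes was 0.81, with quartiles of 0.32 and 1.26. Cish stood at 1.87, Socs3 and Socs4 at 1.81, Socs7 at 1.58, Socs6 at 1.12, Socs1 and Socs2 at 0.68 and Socs5 at −0.51. A ratio of at least 1 was reached by 5 of 8 members, beside 41.1% of all genes, and a ratio of at most −1 by 0 of 8, beside 0.745%. Single members were within the range of other genes: 8.09% of all genes had a ratio as high as Cish, and 2.07% one as low as Socs5. Windows of neighbouring genes share peaks, so the values of all genes are not independent.

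**Figure D3:**
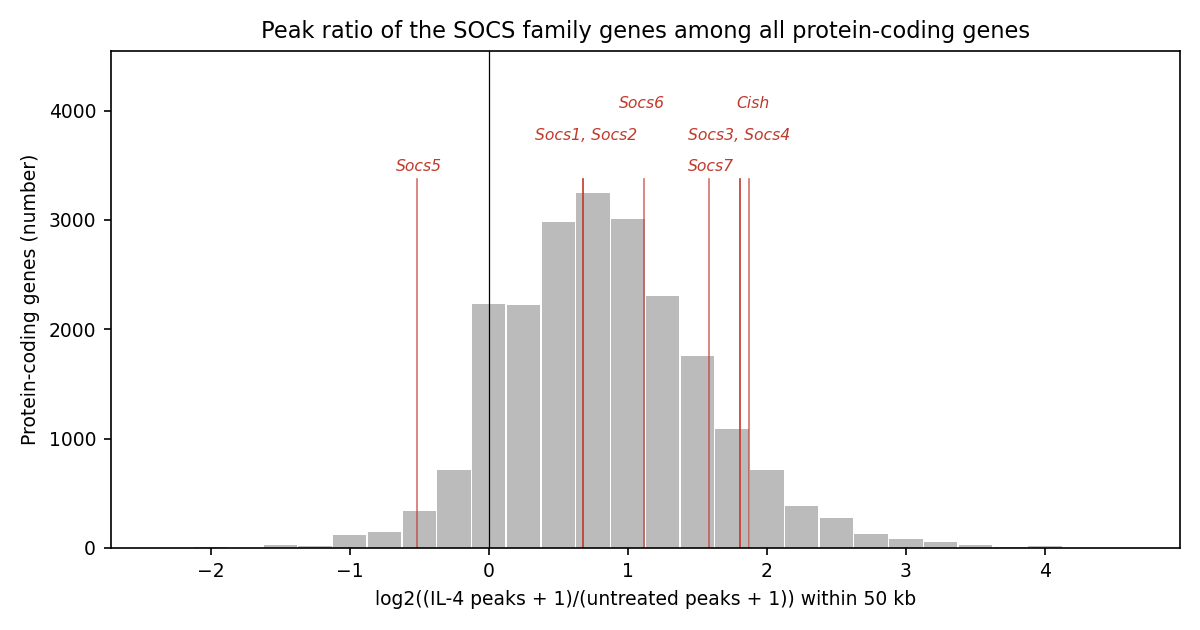
Number of protein-coding genes (vertical axis) by the log2 ratio of IL-4 to untreated peaks within 50 kb, with 1 added to each count (horizontal axis, bins of 0.25); red lines mark the SOCS family genes. Socs5 stands at −0.51, Socs1 and Socs2 near the median of all genes, and Socs7, Socs3, Socs4 and Cish between 1.58 and 1.87.

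Peaks of 3 fragments were listed in the IL-4 library only. Of the 120 IL-4 peaks 26 had 3 fragments, and 7 of these lay at Socs2 and 7 at Socs4. In the whole IL-4 list, 162994 of 240661 peaks had at least 4 fragments, against 94 of 120 near members. Counting peaks of at least 4 fragments gave 94 with IL-4 and 50 without. The ratio was then 1.88 instead of 2.40, and that of the whole lists, which also cover peaks far from any gene, was 1.09 instead of 1.61. On that count Socs3 had 18 (10.7 to 28.4) and 5 peaks (1.62 to 11.7), Cish 17 (9.90 to 27.2) and 5, Socs4 13 (6.92 to 22.2) and 5, Socs6 11 and 5, and Socs7 11 and 3. Socs1 then had 11 and 9, Socs2 8 and 9 and Socs5 5 and 9, so the IL-4 library had more at 6 of 8 members, beside 62.1% of all genes. The counting intervals then overlapped at all 8 members (0 of 8 apart, beside 0.868% of all genes). How far the lower background of the IL-4 library accounts for the surplus was not tested.

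The peaks of both libraries near SOCS genes were weak, as in the lists as a whole. The median number of fragments was 4 in the 120 IL-4 peaks and 5 in the 50 untreated peaks, the same as over all peaks of each list, and the highest was 12 and 10. At q of at most 0.05 there were 13 IL-4 peaks (10.8%, exact binomial 95% interval 5.90 to 17.8) and 3 untreated peaks (6.0%, 1.25 to 16.5), beside 12.5% and 14.6% of the whole lists. Socs7 held 4 of these IL-4 peaks, Socs1, Socs5 and Cish 2 each, Socs3, Socs4 and Socs6 1 each and Socs2 none. The untreated ones lay at Socs1, Socs4 and Socs5, 1 each.

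By position, the density of IL-4 peaks was highest at the ends of the genes. Within 1 kb of an end, IL-4 peaks numbered 10 in 31.7 kb, or 3.15 per 10 kb (1.51 to 5.79), and untreated peaks 3, or 0.945 (0.195 to 2.76). Inside the genes, away from the ends, there were 13 IL-4 peaks, 0.898 per 10 kb (0.478 to 1.54), and 6 untreated peaks, 0.414 (0.152 to 0.902). Outside there were 97, or 1.24 per 10 kb (1.00 to 1.51), and 41, or 0.523 (0.375 to 0.709). The same counts over all protein-coding genes gave 1.70 and 0.670 per 10 kb at ends, 1.03 and 0.616 inside genes and 1.03 and 0.564 outside. All 6 intervals of the family include the value of all genes.

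**Figure D4:**
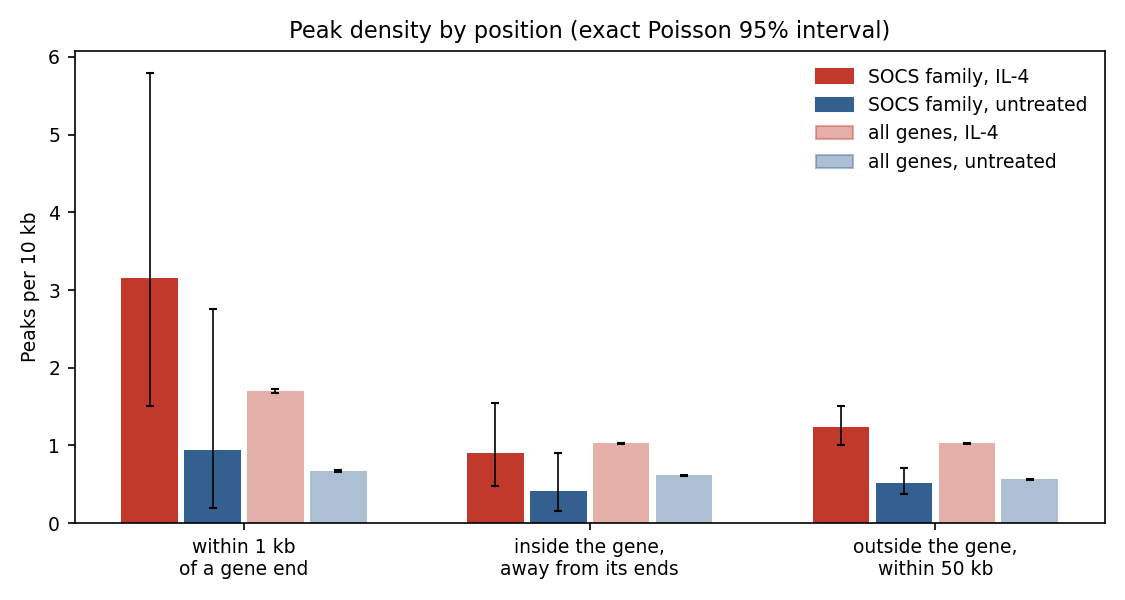
Peaks per 10 kb (vertical axis) within 1 kb of a gene end, inside the gene away from its ends, and outside the gene within 50 kb, for the SOCS family (dark bars) and all protein-coding genes (pale bars), with the IL-4 library in red and the untreated library in blue; error bars are exact Poisson 95% intervals. The IL-4 bar of the family at gene ends is 3.15 per 10 kb, with an interval that reaches down to 1.51, below the 1.70 of all genes.

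Of the peaks outside the genes, 9 of the 97 IL-4 peaks and 3 of the 41 untreated peaks lay within 1 kb of an end of some other gene. Over the full lists, the share at a gene end was 5.37% with IL-4 and 3.48% without. Those shares cover peaks anywhere in the genome, also far from any gene, so the comparison is not a like one. The ends of other genes with an IL-4 peak included those of Pgs1 near Socs3, of Mapk1ip1l with Gm35078 and of Wdhd1 near Socs4. Also among them were ends of Gpr179 near Socs7, of Prm2 and Prm3 near Socs1 and of Hemk1 and Mapkapk3 near Cish. A further IL-4 peak with q of at most 0.05 lay inside the G protein-coupled receptor gene Gpr179, 23703 bp outside Socs7, with 7 fragments at a −log10 q of 2.48. Outside any gene, IL-4 peaks of 7 fragments at a −log10 q of 2.58 stood 19216 bp beyond the 3′ end of Socs3 and 26850 bp outside Socs6. Near Cish, an IL-4 peak of 8 fragments (3.45 to 15.8; −log10 q 2.90) lay 49231 bp beyond the 3′ end, inside the non-coding RNA gene 4930429P21Rik. A 596 bp wide IL-4 peak of 6 fragments lay 19047 bp beyond that end, and 1.10% of the IL-4 list was as wide.

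**Figure D5:**
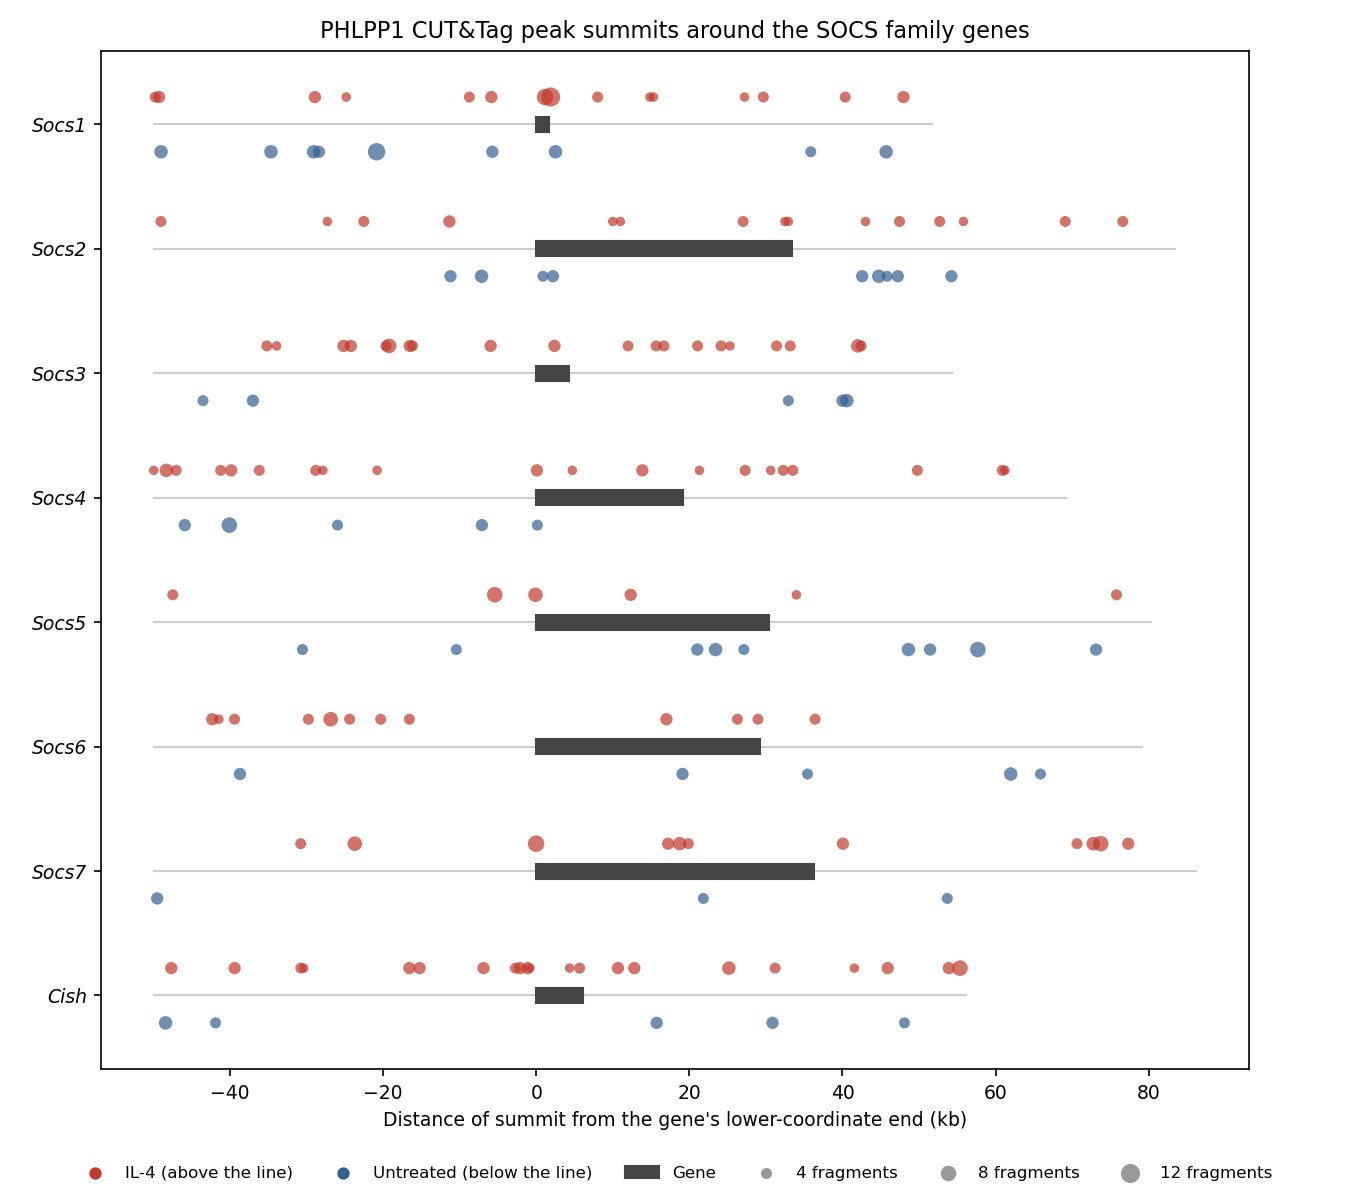
Position of every peak summit around each SOCS family gene, as distance in kb from the gene's end of lower coordinate (horizontal axis); dark bars are the genes, grey lines the 50 kb windows, red points above the line IL-4 peaks, blue points below it untreated peaks, and the point area scales with fragments at the summit. Socs3 has 20 IL-4 peaks over its window and no untreated peak within 28675 bp of the gene, and the untreated summit nearest to the Socs5 end peak is 10343 bp from it. The shares of all genes with gaps as wide are not given here.

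The libraries shared few sites near these genes. Of the 120 IL-4 peaks 5 overlapped an untreated peak by at least 1 bp (4.17%, 1.37 to 9.46), and 5 of the 50 untreated peaks overlapped an IL-4 peak (10%, 3.33 to 21.8), beside 5.42% and 8.73% of the whole lists. The gene-end sites among them were those of Socs1 and Socs4 given above. The other 3 lay outside the genes. At 5863 bp beyond the 3′ end of Socs1 both libraries had 5 fragments (1.62 to 11.7), as they did 11343 bp outside the lower-coordinate end of Socs2. A site 39852 bp upstream of Socs4 had 5 fragments (1.62 to 11.7) in the IL-4 library and 8 (3.45 to 15.8) in the untreated library. At all 5 sites the counting intervals of the libraries overlapped, and no difference was tested.

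The cytokine-induced members and the longer ones can be set side by side. Socs1, Socs2, Socs3 and Cish together had 71 IL-4 peaks and 28 untreated peaks, of which 6 and 2 lay at gene ends. Socs4 to Socs7 had 49 and 22, of which 4 and 1 lay at gene ends. IL-4 end summits stood 20, 88 and 102 bp from an end at Socs7, Socs4 and Socs5. The Socs1 peak spans the start of its gene, with its strongest summit at 153 bp and a further one at 135 bp. Neither group held all of the strong peaks, since Socs1 and Socs7 led in fragments and in −log10 q among IL-4 end peaks. A Socs5 peak away from its ends had a −log10 q of 3.40, above the 3.03 of the Socs1 end peak.

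Other genes of the pathway are given beside all protein-coding genes, of which 49.3% had an IL-4 end peak and 22.7% an untreated one. Of 8 partners of the SOCS box in ubiquitin ligases 7 had an IL-4 end peak and 1 an untreated one. Rbx1, the RING subunit that serves several cullins, had 7 IL-4 fragments (2.81 to 14.4). Elob, encoding elongin B, had 6 IL-4 (2.2 to 13.1) and 5 untreated fragments (1.62 to 11.7). Of 17 receptors and JAK kinases 14 and 3 had end peaks, with the interferon-γ receptor gene Ifngr2 strongest at 12 (6.20 to 21.0) with IL-4 and 4 (1.09 to 10.2) without, and of 7 STAT genes 4 and 1 did.

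Of 12 other inhibitors of this signalling 8 had an IL-4 end peak and 3 an untreated one, and of 27 other SOCS box genes 14 (51.9%) and 7 (25.9%) did, near the shares of all genes. Past a −log10 q of 5 stood Stat3 (18 IL-4 fragments, 10.7 to 28.4), Rab40c, encoding a SOCS box GTPase (19, 11.4 to 29.7), Sh2b3, encoding the adaptor LNK that restrains JAK2 (16, 9.15 to 26.0), and Spsb1, encoding a SPRY and SOCS box protein (11, 5.49 to 19.7). Of all 21887 protein-coding genes, 575 had an IL-4 end peak at a −log10 q of at least 5. Rab40c and Sh2b3 also had untreated end peaks of 7 (2.81 to 14.4) and 6 fragments (2.2 to 13.1), and the Stat3 peak is shared with an end of Gm46295. Together 47 of these 71 genes (66.2%) had an IL-4 end peak and 15 (21.1%) an untreated one, beside 49.3% and 22.7% of all genes, so the untreated share was no higher than that of all genes. The median log2 ratio of peaks within 50 kb was 1.17, beside 0.81 over all genes. These lists describe the 2 libraries and were not tested against other genes.

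The labelled cell type could not be checked by expression, since peaks do not measure RNA. Of 10 macrophage marker genes, 6 had an IL-4 end peak and 2 an untreated one, with 2 and 0 at q of at most 0.05. These are near the shares of all genes, 49.3% and 22.7%, and 18.3% and 4.02% at that q. Of 24 measured markers of T and NK, B, neutrophil, erythroid and stromal cells 10 and 7 did, with 0 and 0 at that q. The part of cell composition in the SOCS family values was not tested.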

How the data were processed

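The authors deposited 1 narrowPeak list per library. Per the submitters' processing notes, which give no roles, mm10 was the build and the tools were MACS2 2.2.7.1, Bowtie 0.12.8 and DiffBind. Fragment length, duplicate handling and any peak-calling control are not stated there. Each deposited entry has a score, a fold enrichment (a linear ratio to the local background), a −log10 p and a −log10 q, all the authors' own values, used only to describe peaks within a list.

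Positions are counted from 1. Where an interval had several entries, the best-supported summit by −log10 q was used. Fragments and background were solved from fold = (fragments + 1)/(background + 1) and a Poisson upper tail, within 0.01 of every deposited −log10 p. Genes came from RefSeq GRCm38.p6, the same assembly as mm10. That gene table gives no strand, so starts are named only for the 4 members in the promoter table, and other ends by coordinate. An end peak has its summit within 1 kb of an annotated end. Intervals are exact Poisson or exact binomial at 95%, and fragments from PCR are not independent molecules. Per-gene totals over all genes count a peak once for each gene whose window holds it. Sequencing depth is unknown. Python 3.11.15, numpy 2.4.6, scipy 1.17.1 and pandas 2.3.3 were used, with solving checked on simulated data.

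The members and lists were chosen with earlier results of these data known. All members were named, and of the pathway genes those with an end peak at a −log10 q of at least 5 or, per list, among the 5 strongest. Alternatives were stricter thresholds, other windows, other overlaps, lists of equal length and every deposited entry. The start from the promoter table and the family without Cish were added after the data were seen.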

Additional observations from a re-analysis of the deposited data

How the results depend on the processing

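Of 58 family values under the alternatives, 40 stayed within 1.5 times the count or within the counting interval, 18 did not, and 0 changed sign. At q of at most 0.05 the family had 3 genes with an IL-4 end peak and 0 with an untreated one, and 13 IL-4 and 3 untreated peaks within 50 kb, at a log2 ratio of 1.81. Of those peaks 30.8% with IL-4 and 0% without lay at an end, and 0% of the IL-4 peaks were overlapped. With lists of equal length, where ties were broken at random, the log2 ratio of the family was 0.70. The lists themselves then no longer differ in number of peaks. As reported the family ratio was 1.25, and its counterpart is the 0.69 of the full lists, which differ in length. An end window of 500 bp left 1 gene with an untreated end peak. Windows of 10 kb and 100 kb held 35 and 220 IL-4 and 13 and 98 untreated peaks by construction, and in the smaller one 28.6% and 23.1% lay at ends. Requiring 50% of an IL-4 peak to be covered, or summits within 100 bp, left 0.833% of IL-4 peaks shared. Whole-list shares under these stricter overlap rules, and the share of all genes at 500 bp, are not given here. Whether they fall as far is therefore unknown here. Without Cish the log2 ratio was 1.12. Among single genes, Socs2 ranged from −0.15 to 1.00 and Socs5 from −1.0 to 0.58, so neither has a direction that holds under every alternative, and Socs4 was at 0 at q of at most 0.05. The other 5 members stayed above 0 in all alternatives. No paired analysis was possible because each group has 1 library. Numbers of 3 to 12 fragments a peak limit every value above.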
